A study of Mus musculus with 6 samples.

Results

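TCR-β rearrangements of CD4+ T cells from kidney and spleen were grouped by which of the 2 mouse Dβ genes, TRBD1 (Trbd1) or TRBD2 (Trbd2), was identified in their V-J junction. The D gene listed first for a clone was taken as its D gene. Of 352074 clones in 6 libraries, 153921 were assigned to TRBD1, 99233 to TRBD2, and 98920 had no D gene listed. After out-of-frame and stop-containing sequences were set aside, 330061 coding clones remained, with 143924 TRBD1, 93075 TRBD2 and 93062 without a D gene. A clone is 1 row of a library's clone table, that is, 1 CDR3 nucleotide sequence (the loop encoded by the V-D-J junction) with its V and J genes.

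CD4+ T cells were isolated on day 22 from the obstructed left kidney and from the spleen of 3 C57BL/6 wildtype mice. All 3 mice had undergone reversible unilateral ureteral obstruction (RUUO) on the right side between day 0 and day 6 and then unilateral ureteral obstruction (UUO) on the left between day 17 and day 22. The samples thus form 3 kidney and 3 spleen libraries in 3 same-mouse pairs, with no sham-operated, uninjured or first-injury-only mice among them. TCR-β transcripts were amplified from the constant region by 5′ RACE (amplification from the 5′ end of the mRNA), and each molecule was tagged with a unique molecular identifier (UMI). For donors of adoptively transferred cells, the authors describe a negative selection step for kidney CD4+ cells that total spleen CD4+ cells did not have. For TCR sequencing they name FACS-sorted CD4+ cells. Any difference in isolation between the organs cannot be told apart from the organ itself. The tables list only TCR-β clones, so the CD4+ label could not be checked against marker genes. The kidney libraries held 734 to 1308 UMIs and 473 to 760 coding clones, whereas the spleen libraries held 102453 to 236000 UMIs and 78078 to 140429 coding clones. Kidney libraries were read at 465 to 784 reads per UMI and spleen libraries at 8.54 to 21.2. Intervals below are 95% Wilson intervals and limits for counts of 0 correspond to 3 counts. Both cover counting error only.

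In developing thymocytes the RAG recombinase joins a D gene to a J gene and then a V gene to that DJ unit, while nucleases trim the ends and terminal transferase adds bases that no gene encodes. The mouse Tcrb locus holds a duplicated D-J-C arrangement: Trbd1 lies upstream of the TRBJ1 genes and Trbc1, and Trbd2 lies between Trbc1 and the TRBJ2 genes. Joining by deletion lets Trbd1 reach either J cluster, whereas Trbd2 lies downstream of all TRBJ1 genes. D genes are short and rich in G, so that trimming often leaves too few bases to tell them apart.

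The sequences of both D genes, as read from clones that kept them whole, are shown because every D call below rests on how they differ.
TRBD1: gggacAgggggc
TRBD2: gggacTgggggggc
They are written 5′ to 3′ in the direction of transcription, and the capital marks the base that distinguishes them. This substitution is A6T, with TRBD1 as the reference and positions counted from 1 at the 5′ end of the D gene. The 12-base TRBD1 sequence was held whole by 2448 clones and the 14-base TRBD2 sequence by 1646. After the distinguishing base, TRBD1 has a run of 5 G and TRBD2 a run of 7 G. A stretch that lacks position 6 and covers only the shared 5′ bases or a short G run therefore fits both genes. In GRCm38.p6, Trbd1 lies at chr6:41533201-41533212, 652 bases before the first TRBJ1 gene. Trbd2 lies at chr6:41542163-41542176, 6476 bases beyond the last TRBJ1 gene and 578 bases before the first TRBJ2 gene. Each distance is the difference between the end of one gene and the start of the next, and from Trbd1 to Trbd2 it is 8951 bases.

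Single clones show what remained of each gene. The next pair are the spleen clones with the most UMIs among those that kept a whole D gene, with the stretch aligned to the D gene in capitals.
TRBD1 with TRBV3 and TRBJ2-7: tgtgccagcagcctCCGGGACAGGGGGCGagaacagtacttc
TRBD2 with TRBV1 and TRBJ2-3: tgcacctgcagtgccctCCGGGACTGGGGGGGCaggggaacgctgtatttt
The TRBD1 clone had 17 UMIs and came from mouse 1, and the TRBD2 clone had 18 UMIs and came from mouse 2. Both alignments run past the germline 5′ end, and that of the TRBD1 clone also past the 3′ end. The bases beyond mirror the ends of the D gene and are scored as part of it. Whole D genes were the exception: 1.59% ± 0.134 (SD, n = 3 spleens) of TRBD1 clones and 1.66% ± 0.0278 of TRBD2 clones kept all germline bases without a mismatch.

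The largest clone of each D gene in each kidney, chosen by UMIs and not for a whole D gene, is shown next.
Kidney 1, TRBD1: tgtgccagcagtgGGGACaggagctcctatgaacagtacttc
Kidney 1, TRBD2: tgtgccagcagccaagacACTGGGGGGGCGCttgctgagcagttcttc
Kidney 2, TRBD1: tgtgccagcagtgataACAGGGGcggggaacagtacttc
Kidney 2, TRBD2: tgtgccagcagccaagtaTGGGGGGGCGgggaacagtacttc
Kidney 3, TRBD1: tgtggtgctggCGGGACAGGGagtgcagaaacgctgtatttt
Kidney 3, TRBD2: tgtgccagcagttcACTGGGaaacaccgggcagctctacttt
The TRBD1 clones, joined to TRBJ2-7, TRBJ2-7 and TRBJ2-3, had 20, 28 and 12 UMIs, and the TRBD2 clones, joined to TRBJ2-1, TRBJ2-7 and TRBJ2-2, had 17, 16 and 7. All 6 used a TRBJ2 gene, and all 6 were also in the spleen of the same mouse, with 96, 101 and 30 UMIs for the TRBD1 clones and 64, 8 and 2 for the TRBD2 clones. Among all kidney coding clones, a TRBJ2 gene was used by 400 of 744 with TRBD1 and 451 of 473 with TRBD2. In the spleen of the same mouse, 44.6% ± 4.77 of kidney TRBD1 and 46.8% ± 0.758 of TRBD2 coding clones were found (SD, n = 3 mice). The largest TRBD1 clone of kidney 1 matched the D gene over 5 bases only, ahead of position 6, and its D call was tied between both genes.

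The first comparison was the use of each D gene between the organs. TRBD1 made up 39.8%, 45.1% and 44.2% of coding clones in kidneys 1, 2 and 3 and 43.4%, 44.1% and 43.1% in spleens 1, 2 and 3, numbered by mouse. The kidneys lay on both sides of the spleens, and the means of 43.0% ± 2.87 and 43.5% ± 0.490 (SD, n = 3 each) did not differ beyond this spread (exact permutation test, two-sided, p = 1.0). TRBD2 made up 28.8%, 26.3% and 28.3% of kidney clones and 28.3%, 27.7% and 28.8% of spleen clones (exact permutation test, p = 0.6). No D gene was listed for 31.5%, 28.6% and 27.5% of kidney clones and for 28.3%, 28.2% and 28.1% of spleen clones (exact permutation test, p = 0.7). Over all coding clones, the difference between organs was thus within 1 percentage point for each class. The wider kidney spread goes with intervals such as 35.5% to 44.2% for TRBD1 in kidney 1. With at least 2 UMIs per clone, kidney minus spleen was 3.19 points for TRBD1, -1.67 for TRBD2 and -1.52 for no D call. The organs did not overlap for no D call in that setting (exact permutation test, p = 0.1). With 3 libraries against 3, the smallest p such a test can give is 0.1.

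**Figure D1:**
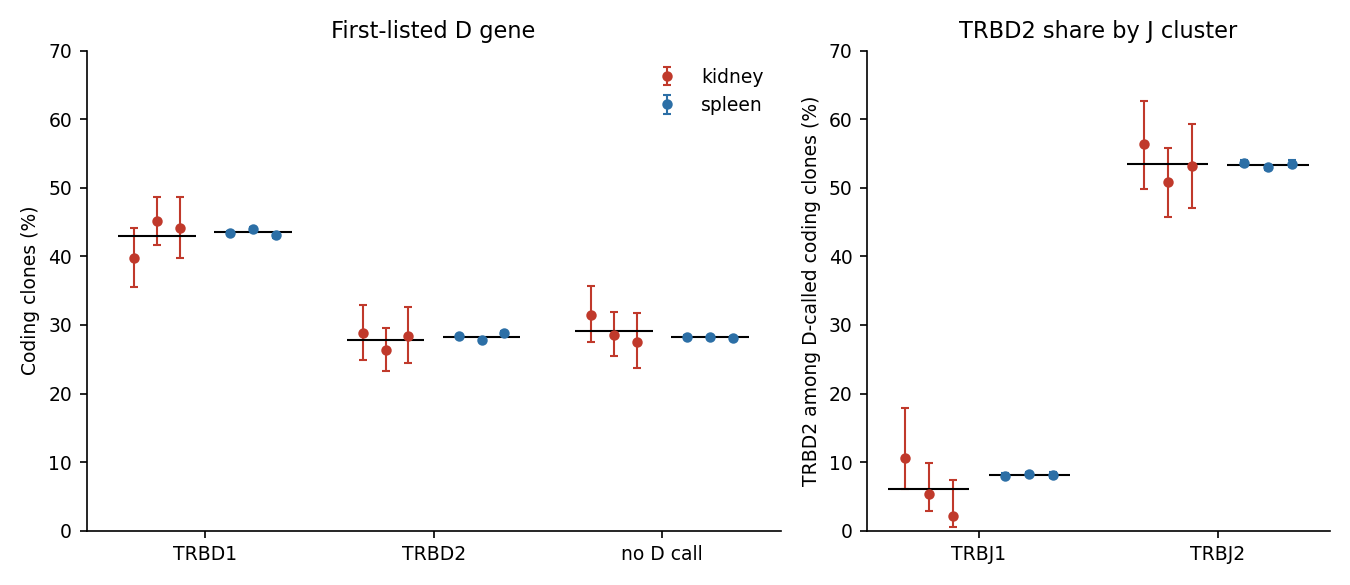
Shares of clones per library, with kidneys in red and spleens in blue, mice 1 to 3 from left to right, bars for 95% Wilson intervals and black lines for organ means. The left panel gives the percentage of coding clones with TRBD1, TRBD2 or no D call, where the organs overlap in each class. The right panel gives the percentage of TRBD2 among clones with a D call, which lies near 8% with TRBJ1 and near 53% with TRBJ2 in the spleens.

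The use of TRBD2 followed the J cluster. Among D-called clones joined to a TRBJ2 gene, TRBD2 accounted for 53.7%, 53.0% and 53.5% in the spleens and 56.4%, 50.8% and 53.2% in the kidneys. Among those joined to a TRBJ1 gene it accounted for 8.0%, 8.30% and 8.11% in the spleens. The TRBJ1 values were 10.6% (11 of 104 clones), 5.39% (9 of 167) and 2.11% (2 of 95) in the kidneys. TRBD2 was thus at near parity with TRBD1 ahead of TRBJ2 and a small minority ahead of TRBJ1. The difference between clusters was 45.2 ± 0.512 percentage points (SD, n = 3) in the spleens and 47.4 ± 3.19 in the kidneys, with TRBJ2 above TRBJ1 in all 6 libraries (exact sign-flip permutation test within each organ, two-sided, p = 0.25, the smallest that 3 mice allow). For neither cluster did the organs differ beyond the spread of the libraries over all coding clones (exact permutation test, p = 0.4 for TRBJ1 and 0.9 for TRBJ2). With TRBJ2 the organs did not overlap in 2 alternative settings that pointed in opposite directions, kidney minus spleen being 2.69 points at D scores of at least 40 and -6.51 with at least 2 UMIs per clone (exact permutation test, p = 0.1 each).

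Because Trbd2 lies beyond the TRBJ1 genes, the TRBD2 calls in TRBJ1 clones were examined by the quality of the D alignment. The alignment score is 5 per matched base, and the lowest score listed is 25. In spleen TRBJ1 clones, TRBD2 made up 9.53% ± 0.208 of calls with scores of 25 to 29 and 11.5% ± 0.25 of those with 35 to 39. Its share was lower at each further step, with 4.26% ± 0.418 at 45 to 49, 1.82% ± 0.227 at 50 to 54 and 0.152% ± 0.0347 at 60 and above, where it was 6 of 3774 calls. In spleen TRBJ2 clones the share ran the other way, from 23.2% ± 1.01 at 25 to 29 to 52.9% ± 0.573 at 35 to 39 and 78.3% ± 0.660 at 60 and above (SD, n = 3 for each). A longer D gene can reach higher scores, and TRBD2 has 2 more bases than TRBD1. The kidneys had 22 TRBD2 calls in TRBJ1 clones in all, too few to divide by score.

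**Figure D2:**
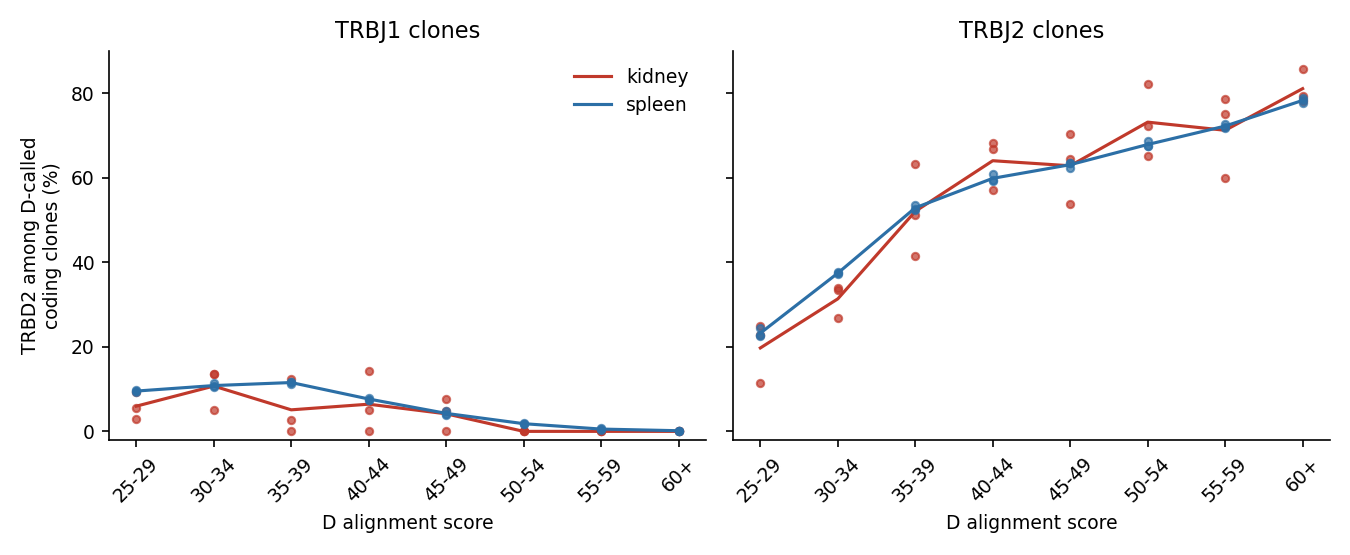
Percentage of TRBD2 among D-called coding clones (vertical axis) by the score of the D alignment (horizontal axis) for TRBJ1 clones on the left and TRBJ2 clones on the right. Points are single libraries and lines organ means, with kidneys in red and spleens in blue. At scores of 60 and above the spleen share is 0.152% with TRBJ1 and 78.3% with TRBJ2.

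Other features of the D alignment differed in the same way. No TRBD2 call among 5987 in spleen TRBJ1 clones held the whole gene, which allows a share of up to 0.0501%, whereas 1529 of 86615 did with TRBJ2. Whole TRBD1 genes were found with both clusters, in 1018 of 67394 TRBJ1 clones and 1238 of 75786 TRBJ2 clones. The base at position 6 was aligned and matched in 38.0% ± 0.912 of TRBD2 calls with TRBJ1, against 85.7% ± 0.269 of TRBD2 calls with TRBJ2, 87.7% ± 0.194 of TRBD1 calls with TRBJ1 and 80.7% ± 0.583 of TRBD1 calls with TRBJ2 (SD, n = 3 spleens). TRBD2 calls with TRBJ1 kept 5.75 ± 0.0775 germline D bases, against 8.65 ± 0.0124 with TRBJ2. When only calls with the distinguishing base were counted, TRBD2 stood at 3.7% ± 0.142 of spleen TRBJ1 calls and 54.9% ± 0.577 of TRBJ2 calls. Most TRBD2 calls with TRBJ1 thus did not align and match the base at position 6. None of these calls had the same score for TRBD1, and the genes also differ in their G runs of 5 and 7 bases.

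Of the 6 spleen TRBJ1 clones with a TRBD2 score of at least 60, 3 held the distinguishing base, and they are shown because they are the fullest TRBD2 matches ahead of TRBJ1 (chosen after their values were seen).
Spleen 1, TRBV31 and TRBJ1-1: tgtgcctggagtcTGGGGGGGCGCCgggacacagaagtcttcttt
Spleen 2, TRBV16 and TRBJ1-1: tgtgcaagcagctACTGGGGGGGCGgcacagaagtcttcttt
Spleen 3, TRBV20 and TRBJ1-5: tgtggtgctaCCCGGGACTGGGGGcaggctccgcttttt
Capitals mark the aligned D stretch. Each of these clones had 1 UMI.

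Ties between the D genes were common and were all listed one way. Both genes had the same score in 9.29% to 11.4% of D calls, coding and non-coding, across the 6 libraries, and TRBD1 was listed first in 100% of these. The rule of taking the first gene therefore counts every tie as TRBD1. Tied calls were 14.2% ± 0.181 of spleen TRBD1 calls with TRBJ1 and 21.2% ± 0.474 of those with TRBJ2. Without ties, TRBD2 made up 59.2% ± 0.465 of spleen TRBJ2 calls and 9.36% ± 0.157 of TRBJ1 calls.

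Individual J genes were then compared. Across the 6 TRBJ1 genes the spleen mean share of TRBD2 among D-called clones ranged from 6.25% ± 0.661 for TRBJ1-5 to 9.52% ± 0.603 for TRBJ1-3. Among the TRBJ2 genes, 5 of 6 lay between 53.4% and 56.1%. TRBJ2-2 stood below them at 42.1%, 41.6% and 42.2% in the 3 spleens, and did not overlap the others in any spleen. At scores of at least 40 it was again the lowest, at 56.3% ± 0.812 against 66.8% to 71.7%. The kidney mean for TRBJ2-2 was 52.2% ± 13.5 on 46 TRBD1 and 44 TRBD2 clones, too few to place it. Clones without a D call ranged from 18.4% ± 0.891 of TRBJ2-1 clones to 41.7% ± 0.653 of TRBJ1-3 clones in the spleens.

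**Figure D3:**
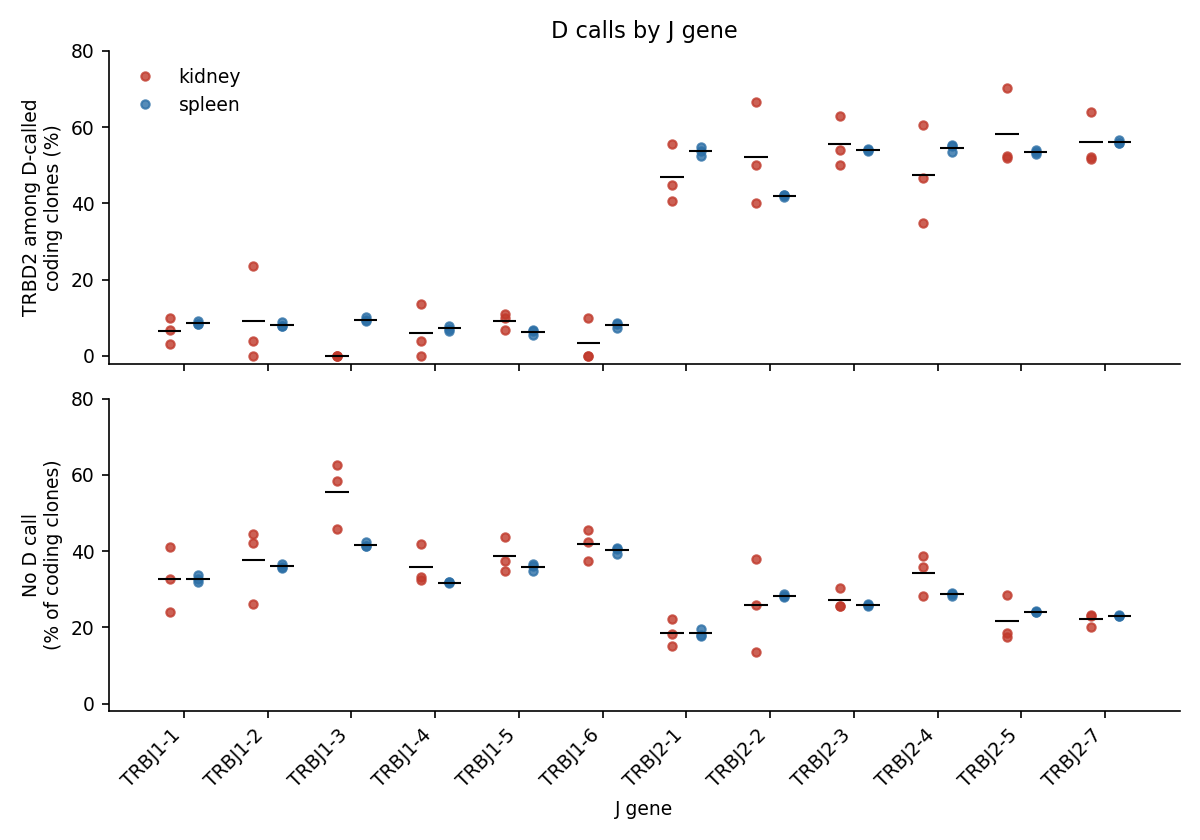
D calls by J gene (horizontal axis), with single kidney libraries in red, single spleen libraries in blue and black lines for organ means. The upper panel gives TRBD2 as a percentage of D-called coding clones, with TRBJ2-2 at 41.6% to 42.2% in the spleens below the other TRBJ2 genes. The lower panel gives the percentage of coding clones with no D call, which is highest for TRBJ1-3 at 41.7% in the spleens.

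The V gene joined to the D segment also went with different D shares. Within spleen TRBJ2 clones, 20 V genes had at least 100 D-called clones in each spleen. TRBD2 made up 30.4% ± 0.354 of calls with TRBV29 and 62.4% ± 0.729 with TRBV4, with a median of 52.2% over the 20 genes. The largest SD between spleens for any of these V genes was 3.00 percentage points, so the range between V genes exceeded the spread between mice. TRBV13-2 (60.3% ± 0.175) and TRBV31 (61.6% ± 0.443) were near the top, and TRBV26 (36.4% ± 2.85) and TRBV14 (39.9% ± 1.26) near the bottom. At scores of at least 40, TRBV29 remained the lowest at 40.1% and TRBV4 the highest at 77.4%. V genes differ in the bases they bring to the junction, and the part of these bases in the D calls was not tested.

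Pairs of D class and J gene were tested between kidney and spleen over the whole table of 36 pairs. By edgeR's quasi-likelihood test on numbers of distinct coding clones, 0 of 36 pairs had a Benjamini-Hochberg adjusted p under 0.05, which is 0% of pairs called. A single pair had an unadjusted p under 0.05, and DESeq2 gave 0 adjusted and 2 unadjusted. That pair was TRBD2 with TRBJ1-3, which had no clone in any kidney and 321, 483 and 227 clones in the spleens (edgeR adjusted p = 0.869). In the spleens it was 0.292%, 0.344% and 0.291% of coding clones, below the 0.395% to 0.634% that a count of 0 allows in single kidneys. Over the 3 kidneys together, 0 of 1716 coding clones allows up to 0.175%, and the difference did not pass the adjustment. TRBD1 with TRBJ2-1 had the next smallest p and made up 4.14%, 4.21% and 5.29% of kidney and 3.46%, 3.55% and 3.57% of spleen coding clones (edgeR adjusted p = 0.874).

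TRBD2 clones had longer CDR3s than TRBD1 clones in both organs. The mean CDR3 length was 41.99 ± 0.12 nucleotides for TRBD1, 43.39 ± 0.117 for TRBD2 and 39.42 ± 0.429 without a D call in the kidneys (SD, n = 3). The spleen means were 41.87 ± 0.0154, 43.31 ± 0.0221 and 39.30 ± 0.0404. Within TRBJ2 clones, which both D genes can reach, TRBD2 exceeded TRBD1 by 2.05, 1.75 and 1.94 nucleotides in the kidneys and by 1.81, 1.85 and 1.84 in the spleens. All 6 libraries had the same direction, with means of 1.91 ± 0.152 and 1.84 ± 0.0200 (exact sign-flip permutation test, p = 0.25 in each organ). In none of the 3 classes did the length differ between the organs beyond the spread of the libraries (exact permutation test, p = 0.3, 0.4 and 0.7 for TRBD1, TRBD2 and no D call). The organs did not overlap for TRBD1 at D scores of at least 40 (kidney longer by 0.244 nucleotides) and at least 10 reads (0.160), nor for clones without a D call weighted by UMIs (0.549), with p = 0.1 each by the same exact test.

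**Figure D4:**
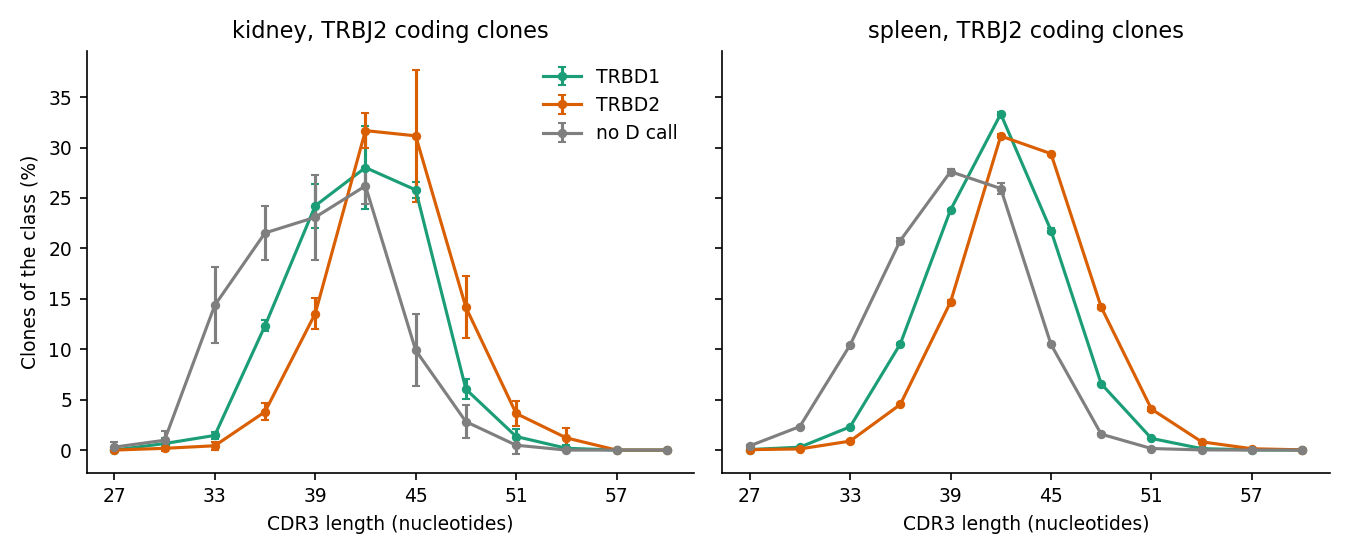
Distribution of CDR3 length in nucleotides (horizontal axis) among TRBJ2 coding clones, as the percentage of each D class (vertical axis), for kidneys on the left and spleens on the right. Points are means and bars SDs of 3 libraries, with TRBD1 in green, TRBD2 in orange and no D call in grey. In both organs TRBD2 is shifted to longer and no D call to shorter CDR3s than TRBD1.

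The length difference was broken down into the parts of the junction. In spleen TRBJ2 clones, TRBD2 clones kept 8.65 ± 0.0124 germline D bases and TRBD1 clones 6.79 ± 0.0247, a difference of 1.86 ± 0.0360. Unassigned bases between V and D differed by 0.0535 ± 0.0154 and those between D and J by -0.140 ± 0.0189. V bases differed by 0.157 ± 0.00187 and J bases by 0.0224 ± 0.0274 (SD, n = 3 spleens, TRBD2 minus TRBD1 in each case). The D segment was thus the part with the largest difference of those measured, and it is the part where TRBD2 has 2 more germline bases. The difference in D bases kept was 1.32 ± 0.0194 without ties and 1.66 ± 0.0129 among calls with the distinguishing base. At the 5′ end, TRBD2 minus TRBD1 was 0.646 ± 0.0146 bases lost, and 0.977 ± 0.0174 without ties and 0.413 ± 0.0173 with the distinguishing base. At the 3′ end it was -0.513 ± 0.0298, and -0.278 ± 0.0103 and -0.0720 ± 0.00473 in the same settings, so that the size of the 3′ difference rested on how D calls were selected (exact sign-flip permutation test, p = 0.25 for each). These parts depend on where the aligner sets the borders, as G bases added by terminal transferase cannot be told apart from the G run of the D gene.

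Intact ends were counted next. In the spleens, 38.2% ± 0.328 of TRBD1 clones and 22.8% ± 0.301 of TRBD2 clones kept the 5′ end of the D gene. The 3′ end was kept by 14.4% ± 0.218 of TRBD1 and 19.9% ± 0.247 of TRBD2 clones. The mirrored bases beyond the 5′ end, as in the whole-gene sequences above, were aligned in 23.5% ± 0.335 of TRBD1 and 13.9% ± 0.200 of TRBD2 clones. Beyond the 3′ end the shares were 7.83% ± 0.132 and 13% ± 0.147. TRBD1 thus kept its 5′ end more often than its 3′ end, and for TRBD2 both ends were closer to each other. Among spleen TRBJ2 calls with the distinguishing base, 34.6% ± 0.0442 of TRBD1 and 25.1% ± 0.343 of TRBD2 clones kept the 5′ end, and 12.3% ± 0.538 and 15.1% ± 0.189 the 3′ end. Kidney values were 36.3% ± 1.79 and 24.1% ± 4.35 for intact 5′ ends and 11.4% ± 2.01 and 22.4% ± 4.87 for intact 3′ ends of TRBD1 and TRBD2.

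Clones without a D call had short junctions. They held 4.59 ± 0.0218 bases between V and J in TRBJ1 and 4.56 ± 0.0615 in TRBJ2 clones of the spleens, against 9.12 to 11.7 bases in the D-called classes. Fewer than 5 bases remained between V and J in 50.5% ± 0.889 of spleen and 55.4% ± 2.98 of kidney clones without a D call. Such clones cannot reach the lowest listed score, and no D-called clone had so short a gap.

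The reading frame of the D segment was compared between coding and out-of-frame clones of the spleens, since out-of-frame chains make no receptor. Frames are named by the codon position of the first germline D base, with codons counted from the start of the CDR3. Where that base was trimmed, its position was inferred from the alignment of the remaining D bases. In the untrimmed genes, position 1 encodes Gly-Thr-Gly-Gly in both, position 2 Asp-Arg-Gly in TRBD1 and Asp-Trp-Gly-Gly in TRBD2, and position 3 Gly-Gln-Gly and Gly-Leu-Gly-Gly. Trimmed clones may lack some of these residues, which were not counted.

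Among 9569 out-of-frame TRBD1 clones, position 1 made up 33.1%, 31.4% and 32.4% in spleens 1, 2 and 3, against 35.01%, 34.9% and 34.9% among 143180 coding clones. Position 2, the frame of the charged Asp-Arg pair in the untrimmed gene, made up 33.7%, 34.8% and 35.3% of out-of-frame and 30.4%, 30.6% and 30.4% of coding clones. Coding minus out-of-frame, the share of TRBD1 clones differed by -4.15 ± 0.764 percentage points at position 2, 2.62 ± 0.776 at position 1 and 1.53 ± 0.796 at position 3 (SD, n = 3). The sign held in 3 of 3 spleens for each frame (exact sign-flip permutation test, p = 0.25 each).

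In TRBD2 clones, position 1 was again more frequent among coding clones. It made up 31.9%, 30.7% and 31.4% of 5914 out-of-frame clones and 36.8%, 37.3% and 36.9% of 92602 coding clones, a difference of 5.69 ± 0.858 points. Position 2, the frame of Asp-Trp in the untrimmed gene, was lower among coding clones by -4.42 ± 0.221 points, at 30.7% ± 0.371 against 35.1% ± 0.377. Position 3, the frame of Leu in the untrimmed gene, differed by -1.27 ± 0.70 points. All 3 spleens had the same sign in each frame (exact sign-flip permutation test, p = 0.25 each), and coding and out-of-frame clones did not overlap in any of the 6 frames of the 2 genes. The 3 shares of a gene add up to the whole, so its frames are not separate results. Calls without the distinguishing base entered too, and no alternative was run for this comparison. The kidneys had only 45 and 30 out-of-frame clones for TRBD1 and TRBD2, too few for the comparison.

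**Figure D5:**
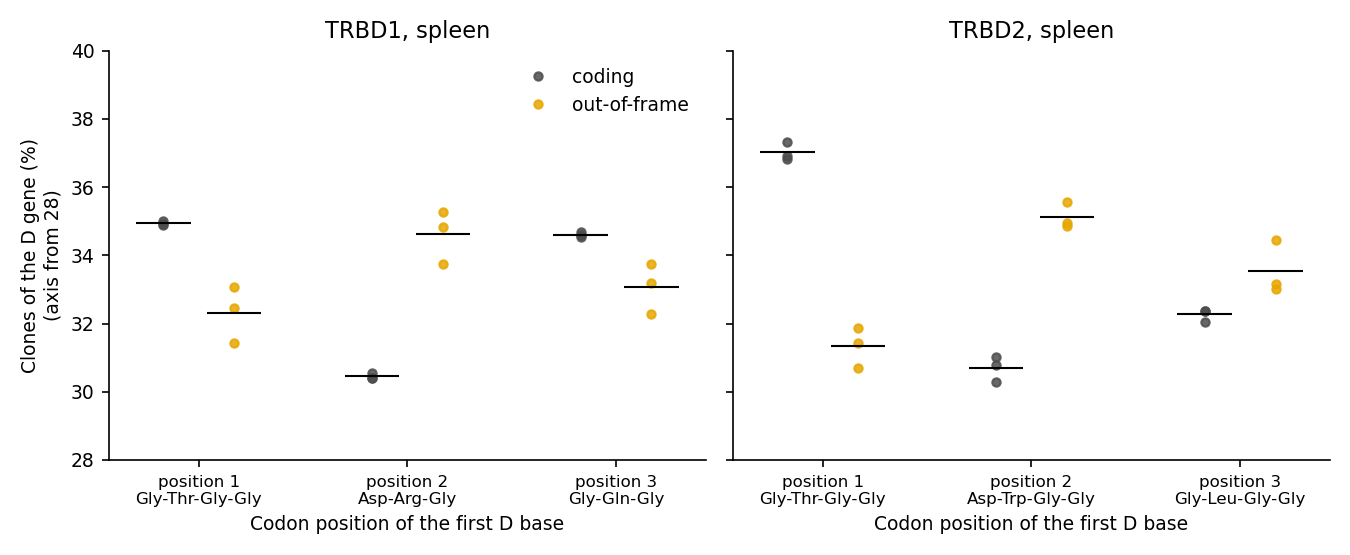
Reading frames of TRBD1 (left) and TRBD2 (right) in the spleens, as the percentage of clones of that D gene (vertical axis, which starts at 28) by the codon position of the first D base. Points are 3 spleens and black lines their means, with coding clones in grey and out-of-frame clones in yellow. Position 2 is lower and position 1 higher among coding clones for both genes.

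Non-coding clones made up similar shares of both D classes, with 6.37% ± 0.672 of TRBD1, 6.08% ± 0.703 of TRBD2 and 5.86% ± 0.383 of other clones in the spleens, and 6.09% ± 1.5, 5.94% ± 2.15 and 6.77% ± 1.73 in the kidneys (SD, n = 3; exact permutation test between organs, p = 0.9, 1.0 and 0.5). Within spleen TRBJ2 clones the TRBD2 share minus the TRBD1 share was -0.0814, -0.275 and -0.240 points in mice 1, 2 and 3 (exact sign-flip permutation test, p = 0.25). In the kidneys the same difference was -5.19, 5.17 and 0.0232 points, with no common sign. With at least 2 UMIs per clone, the organs did not overlap in the non-coding share of clones without a D call. Kidney minus spleen was then 2.56 points (exact permutation test, p = 0.1).

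The kidney and spleen were also compared for frames and junction parts. In all, 26 measures of D use, length, clone size, frame and junction were tested between the organs, and in 4 of them the kidneys and spleens did not overlap. Kidney TRBD2 clones had 8.77 to 8.86 aligned D bases and spleen TRBD2 clones 8.45 to 8.49. Bases between V and D were fewer in the kidneys for both genes, at 1.09 ± 0.0609 against 1.22 ± 0.00522 for TRBD1 and 1.13 ± 0.0240 against 1.25 ± 0.00993 for TRBD2. Weighted by UMIs, these differences shrank from -0.124 to -0.0276 and from -0.125 to -0.0435 bases (exact permutation test, p = 0.2 and 1.0). Position 1 of TRBD1 made up 31.8% ± 3.30 of kidney and 34.9% ± 0.0594 of spleen coding clones, a difference of -3.10 points, or -1.21 without mouse 1. Each of the 4 had p = 0.1 (exact permutation test), the smallest that 3 against 3 allows, and an adjusted p of 0.65 over the 26 tests. None passed the correction, and the other 22 had an adjusted p of 1.0. Of these, position 2 of TRBD1 weighted by UMIs (kidney minus spleen 4.28 points) did not overlap between the organs. The same held for aligned bases of TRBD1 without ties (-0.129 bases, exact permutation test, p = 0.1 each).

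Clone size was measured in UMIs per coding clone. In bulk libraries more cells of a clone and more TCR mRNA per cell cannot be told apart. TRBD1 clones had 1.61, 1.80 and 1.45 UMIs on average in kidneys 1, 2 and 3, against 1.42, 1.58 and 1.24 in the spleens. TRBD2 clones had 1.74, 1.40 and 1.35 UMIs in the kidneys, against 1.43, 1.55 and 1.24 in the spleens. Over all coding clones, the differences between mice within an organ were as large as those between the organs. The kidney value was above the spleen value of the same mouse in 3 of 3 mice for TRBD1 and in 2 of 3 for TRBD2 (exact permutation test, p = 0.2 and 0.7). With at least 2 UMIs per clone the organs did not overlap in any class. Kidney minus spleen was then 0.898 UMIs for TRBD1, 0.629 for TRBD2 and 0.650 without a D call (exact permutation test, p = 0.1 each). With at least 10 reads per clone these differences were 0.0432, -0.0774 and -0.134 UMIs. Within TRBJ2 clones, the mean of TRBD2 minus that of TRBD1 clones was -0.0773, -0.568 and -0.176 UMIs in the kidneys, against -0.00160, -0.0475 and -0.00337 in the spleens (exact sign-flip permutation test, p = 0.25 in each organ). In the spleens the mean turned to 0.00586 when clones with 1 UMI were left out. In kidney 1, where the largest TRBD1 clone was a tie, the difference turned to 0.106 without ties, 0.141 at D scores of at least 40 and 0.281 with at least 2 UMIs. The kidney mean of -0.274 was -0.0463 at D scores of at least 40.

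In the spleens, clones without a D call had more UMIs and were more often found in more than 1 mouse than clones of either D gene. In the kidneys they had 1.46, 1.62 and 1.60 UMIs, below TRBD1 clones in 2 of 3 mice. Their spleen mean of 1.51 ± 0.201 UMIs exceeded TRBD1 by 0.0940 ± 0.0376 and TRBD2 by 0.0969 ± 0.0449, in 3 of 3 mice each. The size of this excess went with CDR3 length. At 36 nucleotides they had 1.58 ± 0.237 UMIs, against 1.45 ± 0.203 for TRBD1 and 1.41 ± 0.199 for TRBD2. At 45 nucleotides the values were 1.43 ± 0.180, 1.38 ± 0.152 and 1.42 ± 0.158. In spleen 3 they were then below TRBD2, at 1.22 against 1.25. The same CDR3 nucleotides, V and J gene were found in the spleen of another mouse for 6.12% ± 0.929 of TRBD1 clones and 12.1% ± 1.93 of clones without a D call. Within TRBJ2 clones this share was 5.55% ± 0.792 for TRBD1, 6.03% ± 0.821 for TRBD2 and 12.3% ± 1.97 without a D call. The difference from TRBD1 was 5.98 ± 1.01 points over all clones, again in 3 of 3 mice (exact sign-flip permutation test, p = 0.25). A clone found in 2 spleens counts as shared in both, so the values of the 3 mice are not independent here.

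Sharing also went with CDR3 length. At 36 nucleotides, 7.97% ± 1.20 of TRBD1, 4.79% ± 0.739 of TRBD2 and 15.4% ± 2.31 of other clones were in another spleen. At 42 nucleotides the shares were 7.45% ± 1.11, 7.76% ± 1.08 and 10.7% ± 1.64. At 48 nucleotides they were 1.43% ± 0.255, 2.84% ± 0.287 and 1.42% ± 0.607. The excess of clones without a D call was thus present in short CDR3s and not at 48 nucleotides, where TRBD2 clones, with the longer D gene, had the highest share. Between kidney and spleen of the same mouse, 44.6% ± 4.77 of kidney TRBD1 clones, 46.8% ± 0.758 of TRBD2 clones and 51.7% ± 8.78 of clones without a D call recurred, and the D genes differed by less than the spread of the mice.

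Last, junctions were searched for stretches of both D genes, each including the distinguishing base, between the V and J segments of all clones. With stretches of 9 bases, TRBD1 followed by TRBD2 was found in 3, 6 and 4 TRBJ2 clones of the 3 spleens. The reverse order was found in 0 of 228797 TRBJ2 clones, which allows up to 1.31 per 100000, and either order in 0 of 121448 TRBJ1 clones, which allows up to 2.47 per 100000. The 13 clones, 5.68 per 100000, thus had the D genes in their order along the chromosome and used the J cluster downstream of both. With stretches of 8 bases the counts were 26 in this order and 4 in the reverse with TRBJ2 and again 0 with TRBJ1. With 6 bases the order was no longer distinct, with 213 and 156 clones for TRBJ2 and 29 and 54 for TRBJ1. The coding clone with the most UMIs in each spleen is shown for its paired D stretches, in capitals (chosen after the values were seen).
Spleen 1, TRBV13-2 and TRBJ2-5: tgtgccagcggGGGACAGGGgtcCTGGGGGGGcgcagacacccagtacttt
Spleen 2, TRBV13-2 and TRBJ2-7: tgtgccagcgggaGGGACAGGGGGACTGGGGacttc
Spleen 3, TRBV5 and TRBJ2-1: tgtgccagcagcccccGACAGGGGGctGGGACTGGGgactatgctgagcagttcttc
They had 1, 3 and 2 UMIs. In the clone of spleen 2 the TRBD1 and TRBD2 stretches adjoin without a base between them. The clone of spleen 1 was 1 of 3 with the same UMI count.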

How the data were processed

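The authors amplified TCR-β mRNA of sorted CD4+ T cells by 5′ RACE, assembled UMI-tagged reads into clones with MiXCR and deposited, per library, the UMI count and read count of each clone, without normalization. Per the labels, R 4.4.2 and the GRCm38 build were used. D genes, scores and junction positions were taken from the deposited alignments. Here a clone's D gene was the one listed first, and clones with stop codons or frameshifts were non-coding. All 40 V, D and J names matched symbols of the GRCm38.p6 annotation.

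Shares and means were computed per library, so that clones were not treated as replicates. The organs were compared by exact permutation (20 relabellings of 3 against 3 libraries) and differences within libraries by exact sign flips over 3 mice. P values adjusted by Benjamini-Hochberg cover 26 organ comparisons. Numbers of coding clones per D-J pair (at least 10 clones over 6 libraries) were tested by edgeR's quasi-likelihood test with coding clones as library size. In simulated data with 4 pairs changed 2-fold, it called 95% of changed and 0.75% of unchanged pairs. The simulated counts held counting error only, so this check does not cover further spread between libraries. The labels give 1 mouse for each kidney and spleen of the same number. Over 36 D-J pairs, deviations from the organ means correlated between them by 0.00317, -0.363 and 0.300 in mice 1, 2 and 3, and pairing served as an alternative. The clones named were the largest of each D gene in each kidney (unless several had the same UMI count) and the largest spleen clone with each whole D gene. The D genes, measures and rules were chosen with earlier results of these data known.

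Software versions were edgeR 4.0.16 and DESeq2 1.42.0 under R 4.3.3, and matplotlib 3.10.9, scipy 1.17.1, numpy 2.4.6 and pandas 2.3.3 under Python 3.11.15. D-gene sequences were read from clones, as no genome sequence was used here.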

Additional observations from a re-analysis of the deposited data

How the results depend on the processing

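Across the results for which alternatives were run, 240 values kept their direction and their side of the 0.05 threshold, and 43 changed sign. None crossed the threshold, but only the D-J pairs could have crossed it. Part of the 240 could not have changed. They include 27 with the mouse as a replicate block, which repeat the main value except for the D-J pairs. Another 18 come from the merging of rows, which left every value as it was. Leaving out ties could not change means of TRBD2 clones or of clones without a D call. The frames of coding against out-of-frame clones had no alternative. With 3 mice, the exact tests cannot give a p under 0.1 between organs or under 0.25 for sign flips. In the spleens the TRBD2 share with TRBJ2 minus TRBJ1 stayed between 45 and 63.7 percentage points, and the CDR3 length difference between TRBD2 and TRBD1 within TRBJ2 between 1.51 and 1.90 nucleotides. The kidney means ran from 36.3 points (at least 2 UMIs) to 66.3 (D scores of at least 40) and from 1.63 nucleotides (D scores of at least 40) to 2.34 (weighted by UMIs). With the mouse as a term in edgeR, 0 of 36 D-J pairs were called. The same held with TMM, DESeq2 and each other alternative run for the pairs (0 to 7 pairs at an unadjusted p under 0.05). Sign flips with the mouse as a replicate block could not call any difference. The merging of rows with the same CDR3, V and J merged 0 rows.

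The sign changes concerned kidney minus spleen, except 1, and the exact tests could not call such a difference in any setting. With at least 2 UMIs per clone, it was 3.19 points for the TRBD1 share, -1.52 for no D call, 2.48 and -6.51 for TRBD2 with TRBJ1 and TRBJ2, -0.0316 nucleotides for TRBD2 length, and 1.27 and 0.485 points for non-coding TRBD1 and TRBD2 clones; TRBD2 minus TRBD1 within spleen TRBJ2 clones was then 0.00586 UMIs. Weighted by UMIs, it was 1.66 points for TRBD1, -0.507 for no D call, -3.92 for TRBD2 with TRBJ2, -0.0394 nucleotides for TRBD1 length, 0.188 points for non-coding TRBD2, -0.0910 and 0.305 points for position 3 of TRBD1 and TRBD2, and 0.0513 bases between D and J for TRBD2. With D scores of at least 40, it was 1.00 points for TRBD2, -0.133 for no D call and 0.0449 for TRBD2 with TRBJ1. With only calls that hold the distinguishing base, an alternative chosen after seeing the data (as were the settings for D ends), these were 0.537, -0.360 and 0.234. Without ties it was -0.618 points for TRBD2 with TRBJ2. With at least 10 reads it was -0.0774 and -0.134 UMIs for TRBD2 and no D call, and 0.330 and 0.639 points for non-coding TRBD1 and TRBD2. With non-coding clones included it was -0.0300 nucleotides for the length without a D call. The cause of these changes was not tested.

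Leaving out each mouse in turn gave -1.28 to 1.08 points for the TRBD1 share, -0.113 to 1.78 for no D call and -1.23 to 1.22 for TRBD2 with TRBJ2. It gave -0.0877 to 0.341 nucleotides for the length without a D call, and -0.0214 to 0.209 and -0.0728 to 0.125 UMIs for TRBD2 and no D call. For non-coding shares it gave -0.953 to 0.656, -1.03 to 1.19 and -0.142 to 1.93 points for TRBD1, TRBD2 and no D call. For frames it gave -4.42 to -1.21 points at position 1, -1.26 to 1.90 and -0.695 to 5.68 points at positions 2 and 3 of TRBD1, and -0.689 to 0.0149 at position 3 of TRBD2. For junctions it gave -0.195 to 0.0659 aligned bases of TRBD1 and -0.117 to 0.0566 bases between D and J of TRBD2.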
